A study of Mus musculus with 48 samples.

Results

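The data were examined for 10 genes of tendon, the fibrous tissue that joins muscle to bone. They were 2 transcription factor genes (Scx, Mkx), the membrane protein gene Tnmd and 7 genes of extracellular matrix proteins (Fmod, Kera, Chad, Thbs4, Comp, Tnc, Tnn). They were chosen by name, and all 10 were found among the 27179 genes of the count table. Whole hindlimb muscles had been collected from male FVB/NJ mice, an inbred strain. Adult soleus, vastus intermedius, gastrocnemius and vastus lateralis were set against the same muscles of E18.5 embryos, with 6 animals at each stage and 1 library per animal and muscle. For the age of the adults, the labels give 3 to 4 months in the growth protocol and postnatal day 56 in the study design. The slow-biased pair, with more fibres of slow myosin, is soleus and vastus intermedius. The fast-biased pair is gastrocnemius and vastus lateralis. The vastus muscles lie in the thigh, and soleus and gastrocnemius in the shank. All animals were untreated mice of 1 strain, and no cell type was isolated, so a library holds the RNA of every cell in the dissected piece. The adult vastus intermedius library of collection B was left out for its embryonic profile. That left 23 adult and 24 E18.5 libraries, 5 of them in adult vastus intermedius and 6 in every other group. Collections are the 6 date tags of each stage in the column names, lettered A to F and used as the animal.

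Tendon is built by tenocytes, fibroblasts that lay down parallel collagen fibrils. Scleraxis, encoded by Scx, is a basic helix-loop-helix transcription factor that marks tendon progenitors and tenocytes, and Mohawk, encoded by Mkx, is a homeobox factor needed for collagen production in tendon. Tenomodulin, encoded by Tnmd, is a membrane glycoprotein of tenocytes and a known target of scleraxis. Muscle meets tendon at the myotendinous junction, so muscle pieces can hold some tendon, and the connective tissue sheaths of muscle share many matrix genes with it. In bulk samples, fewer cells of a type and less RNA per cell cannot be told apart.

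Among these genes, Kera, Fmod and Thbs4 had the highest Pearson correlation with Tnmd from library to library in the adult. The promoters of Tnmd and these genes are shown with the short motif that scleraxis and other factors of its class can bind. RefSeq promoters on build GRCm38.p6, from 250 bases before to 50 bases after the start, were examined for 7 of the 10 genes. Those of Scx, Mkx and Comp were not examined, so the E-box counts below leave these genes out. Capitals mark CANNTG, the E-box, which reads the same on both strands.
Tnmd (chrX:133850758-133851057, forward strand): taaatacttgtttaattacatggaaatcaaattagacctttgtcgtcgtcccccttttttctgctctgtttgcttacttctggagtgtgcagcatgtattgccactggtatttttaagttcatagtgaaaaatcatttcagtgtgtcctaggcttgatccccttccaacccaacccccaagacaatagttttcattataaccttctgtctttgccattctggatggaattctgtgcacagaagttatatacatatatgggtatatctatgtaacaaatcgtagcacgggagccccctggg
Kera (chr10:97606955-97607254, forward strand): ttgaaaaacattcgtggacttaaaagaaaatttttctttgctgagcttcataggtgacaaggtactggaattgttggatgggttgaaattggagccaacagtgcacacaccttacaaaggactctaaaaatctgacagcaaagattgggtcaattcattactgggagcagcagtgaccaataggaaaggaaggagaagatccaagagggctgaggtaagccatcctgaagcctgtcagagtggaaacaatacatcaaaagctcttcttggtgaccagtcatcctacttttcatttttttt
Fmod (chr1:134037004-134037303, forward strand): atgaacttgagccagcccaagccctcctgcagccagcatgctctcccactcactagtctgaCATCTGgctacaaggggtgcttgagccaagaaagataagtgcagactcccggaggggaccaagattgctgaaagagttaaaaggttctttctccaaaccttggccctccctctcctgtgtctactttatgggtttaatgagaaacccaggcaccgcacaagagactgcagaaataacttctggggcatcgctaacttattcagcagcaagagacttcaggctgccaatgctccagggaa
Thbs4 (chr13:92794769-92795068, reverse strand): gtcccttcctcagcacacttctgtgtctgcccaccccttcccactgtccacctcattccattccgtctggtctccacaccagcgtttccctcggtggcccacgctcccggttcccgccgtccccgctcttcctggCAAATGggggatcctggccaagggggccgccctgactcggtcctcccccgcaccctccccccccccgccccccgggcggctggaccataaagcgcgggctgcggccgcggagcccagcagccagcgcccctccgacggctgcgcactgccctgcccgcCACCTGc
Fmod held 1 E-box (CATCTG, 189 bases before the start). Thbs4 held 2 (CAAATG, 115 bases before the start, and CACCTG, 43 bases after it). Tnmd and Kera held none in this window. For Kera the start used lies downstream of the first base of the gene (97606962), so most of its window lies within the gene. Of the other 3 genes examined, Chad held 1 E-box and Tnn none. Tnc had 2 start sites in the table, with 3 and 2 E-boxes. At least 1 E-box was present in 72.3% of 32851 promoters of the same length, so a match was common. These letters are a description of the window and say nothing of binding.

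Libraries held a total of 14935541 to 32383982 counts. Levels are given as CPM, counts scaled by library total, after TMM scaling, which corrects for differences in RNA composition, on 1 scale over all 48 libraries. Where a library had no count of a gene, counting error alone leaves room for 3 counts, worth 0.144 to 0.382 CPM in adult and 0.0637 to 0.115 CPM in E18.5 libraries. The label of skeletal muscle held in every library kept: summed CPM of 8 muscle genes, among them Acta1 and Ckm, ran from 64179 to 358412 in adult and from 7222 to 30880 in E18.5 libraries. Myh3, embryonic myosin heavy chain, was at most 41.2 CPM in adult and at least 5524 CPM in E18.5 libraries. The cartilage genes Col2a1 and Acan were near 0 in adult muscle, with Acan at 0 in all 6 gastrocnemius libraries, and averaged 13.6 to 44.4 CPM and 9.82 to 25.6 CPM over the E18.5 muscles. Tnc shares exons with a gene on the opposite strand, and the sources used here do not state whether counting used strand, so its reads could not be told apart from those of that gene. Mkx shares exons with a gene on its own strand, where strand does not separate the reads. Scx and Chad share only their span with another gene, and no exons.

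Several adult libraries differed from the rest of their group in these genes. The soleus library of collection D and the vastus intermedius library of collection C are described here and were left out as an alternative. They were singled out by the levels of these genes, so all values without them are a description of the remaining libraries. Besides these, the gastrocnemius library of collection A was the highest of its group in 9 of the 10 genes and the vastus lateralis library of collection B in all 10. Leaving out collection A or B as a whole was among the alternatives. In the adult soleus library of collection D, 9 of the 10 genes were at the bottom of their group. Tnmd was at 0.492 CPM there, against a median of 27.9 CPM in the other 5 soleus libraries, Fmod at 2.95 against 151 CPM, and Kera at 0.382 against 24.7 CPM. Scx was less far from the others, at 8.63 against 11.3 CPM. The median ratio over these 9 genes was 0.0958, while it was 1.04 for the muscle genes, 1.188 for fibroblast genes and 0.760 for 24 other tendon matrix genes. Of those 24 genes, 11 lay below every other soleus library, among them Col11a1 at 0.273 against 25.996 CPM and Cilp2 at 0.164 against 10.9 CPM. All 5 cartilage genes that were measurable in adult soleus were also at the bottom, with a median ratio of 0.133.

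The adult vastus intermedius library of collection C differed in the opposite direction. Tnmd was at 45.0 CPM there, against a median of 0.770 CPM in the other 4 libraries, Fmod at 334 against 3.56 CPM, Kera at 46.7 against 0.185 CPM and Thbs4 at 425 against 37.7 CPM. Scx, at 8.44 against 3.74 CPM, again differed least. The median ratio of the 8 genes with a median of at least 0.5 CPM in the others was 30.7, and 21 of 23 other tendon matrix genes were also above all 4, with a median ratio of 2.52. The same library carried 37.1 CPM of Adipoq and 62.3 CPM of Plin1, genes of fat cells, against 0.947 and 0.700 CPM. Its Myh7, slow myosin, was at 10917 against 4143 CPM and its Myh4, fast myosin, at 1075 against 13965 CPM. Fibroblast genes had a median ratio of 1.198 and endothelial genes 1.03. The part of carried-along tissue in these differences was not tested.

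**Figure D1:**
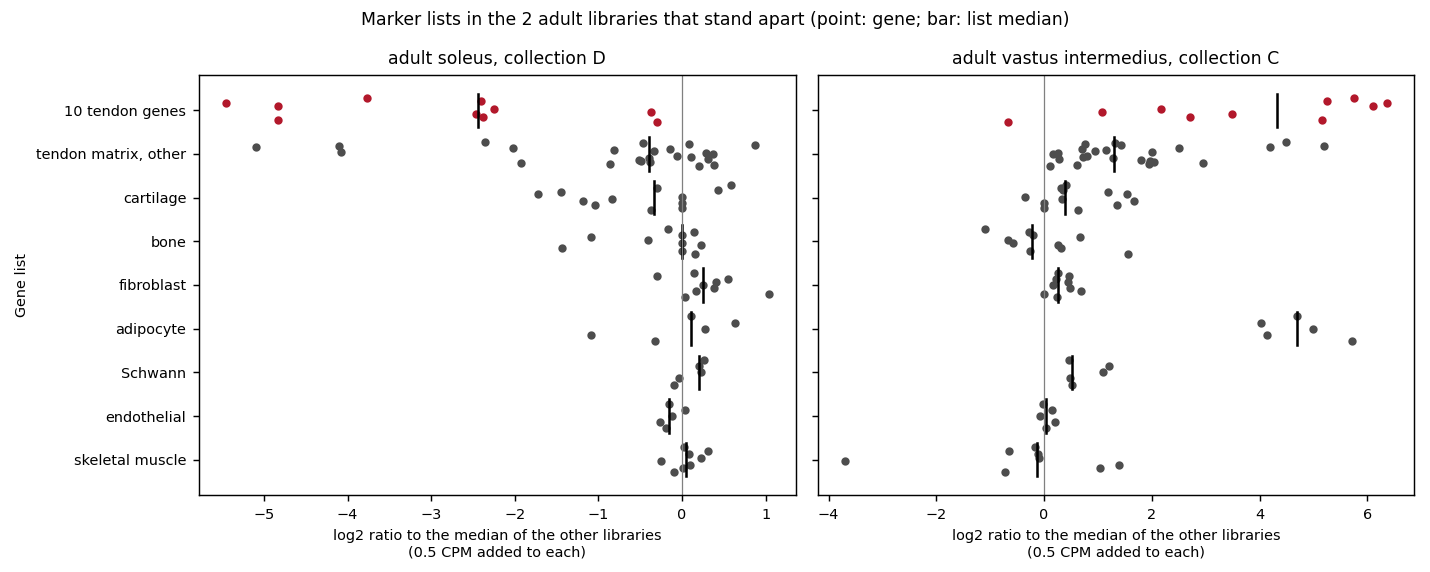
Log2 ratio (horizontal axis, 0.5 CPM added to both values) of single genes (points) of 9 gene lists in the adult soleus library of collection D and the adult vastus intermedius library of collection C to the median of the other libraries of their group. Vertical bars are list medians. Most tendon genes lie far below 0 in the soleus library, Scx and Tnn least, and all but Tnn lie above 0 in the vastus intermedius library, where fat cell genes are also high.

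**Figure D2:**
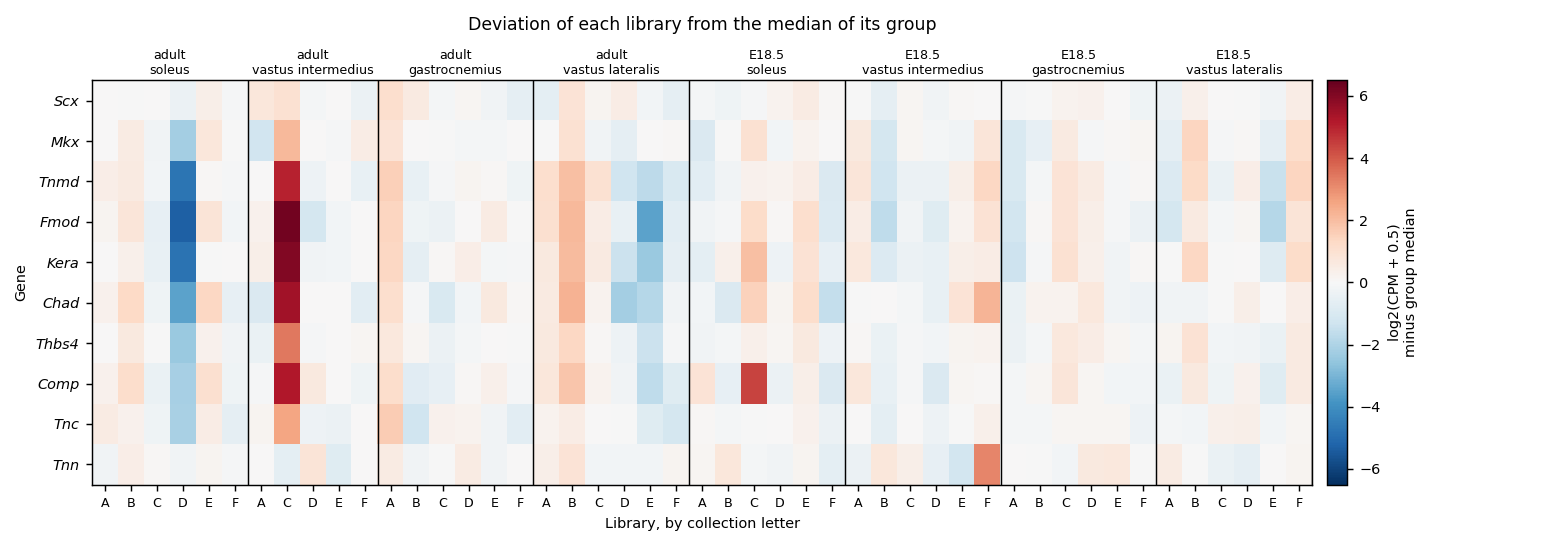
Deviation of each library from the median of its group on the log2(CPM + 0.5) scale, for the 10 genes (vertical axis) in 47 libraries (horizontal axis, lettered by collection). Red is above and blue below the group median. Columns tend to be of 1 colour, most of all in adult soleus D and adult vastus intermedius C.

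Scx differed between the muscles at both stages. Adult soleus held 8.63 to 15.01 CPM (median 11.3). The 5 adult vastus intermedius libraries held 2.92, 3.52, 3.95, 6.86 and 8.44 CPM, adult gastrocnemius 3.26 to 11.3 CPM (median 5.15) and adult vastus lateralis 1.62 to 5.51 CPM (median 2.77). At E18.5 soleus held 14.5 to 25.9 CPM (median 17.9), vastus intermedius 7.57 to 12.9 CPM (median 11.6), gastrocnemius 11.5 to 17.4 CPM (median 14.1) and vastus lateralis 7.04 to 13.4 CPM (median 9.33). Soleus was the highest and vastus lateralis the lowest muscle at both stages, and adult soleus did not overlap adult vastus intermedius or vastus lateralis.

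Scx fell with age in all 4 muscles. In edgeR's quasi-likelihood test, adjusted by Benjamini-Hochberg over all genes, the log2 fold change of adult over E18.5 was -0.76 ± 0.15 in soleus (SE, adjusted p = 0.000246), -1.06 ± 0.26 in vastus intermedius (0.00200), -1.28 ± 0.24 in gastrocnemius (0.000136) and, for vastus lateralis, -1.72 ± 0.29 (5.24e-05). In the adult it was higher in slow-biased than in fast-biased muscles by 0.86 ± 0.23 (adjusted p = 0.00208) and lower in thigh than in shank muscles by a log2 fold change of -1.07 ± 0.23 (0.00199). At E18.5 the thigh-to-shank difference was -0.69 ± 0.11 (adjusted p = 6.53e-05), and the slow-to-fast value of 0.27 ± 0.11 did not pass (0.336). The slow-to-fast value differed between the stages by 0.55 ± 0.25, which did not pass either (adjusted p = 0.0620). Every one of these Scx calls was kept in every alternative tried.

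Mkx was a low gene with a similar order of muscles. Adult soleus held 0.328 to 5.71 CPM (median 3.29), adult gastrocnemius 1.45 to 3.51 CPM (median 1.67) and adult vastus lateralis 0 to 0.966 CPM (median 0.249), close to what 3 counts are worth. The 5 adult vastus intermedius libraries held 0.0536, 0.732, 0.817, 1.35 and 5.22 CPM. At E18.5 the medians were 12.6 CPM in soleus, 3.27 CPM in vastus intermedius, 8.07 CPM in gastrocnemius and 2.81 CPM in vastus lateralis. E18.5 soleus, at 6.43 to 25.1 CPM, did not overlap E18.5 vastus intermedius, at 1.18 to 6.00 CPM.

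Mkx fell with age in soleus (log2 fold change -2.04 ± 0.44), gastrocnemius (-2.06 ± 0.29) and vastus lateralis (-3.56 ± 0.60), with adjusted p of 0.000828, 5.49e-06 and 5.99e-05. In vastus lateralis Mkx entered the fit through its E18.5 level. The filter favoured a lower adult value there, so that call is no independent support for a fall. In vastus intermedius the value was -1.11 ± 0.69 (adjusted p = 0.161), and without the library of collection C it was -2.29 ± 0.59 (adjusted p = 0.00351). It was lower in thigh than in shank muscles at E18.5 (-1.45 ± 0.30, adjusted p = 0.000951) and in the adult (-1.74 ± 0.49, adjusted p = 0.0154). The adult call was lost without collection A (adjusted p = 0.0514), E (0.0954) or F (0.0728). In the adult Mkx was also higher in slow-biased muscles, by 1.58 ± 0.49 (adjusted p = 0.00694). That call was lost without the vastus intermedius library of collection C (0.99 ± 0.43, adjusted p = 0.0502) and stood without both libraries (1.10 ± 0.37, adjusted p = 0.0129). It was lost also without collection C as a whole (0.91 ± 0.48, adjusted p = 0.111), with limma-voom (1.07 ± 0.68, adjusted p = 0.169) and with the summed CPM of cartilage and bone genes as 1 covariate (1.16 ± 0.93, adjusted p = 0.342). Over the 16 alternatives its adjusted p ran from 0.00105 to 0.342.

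**Figure D3:**
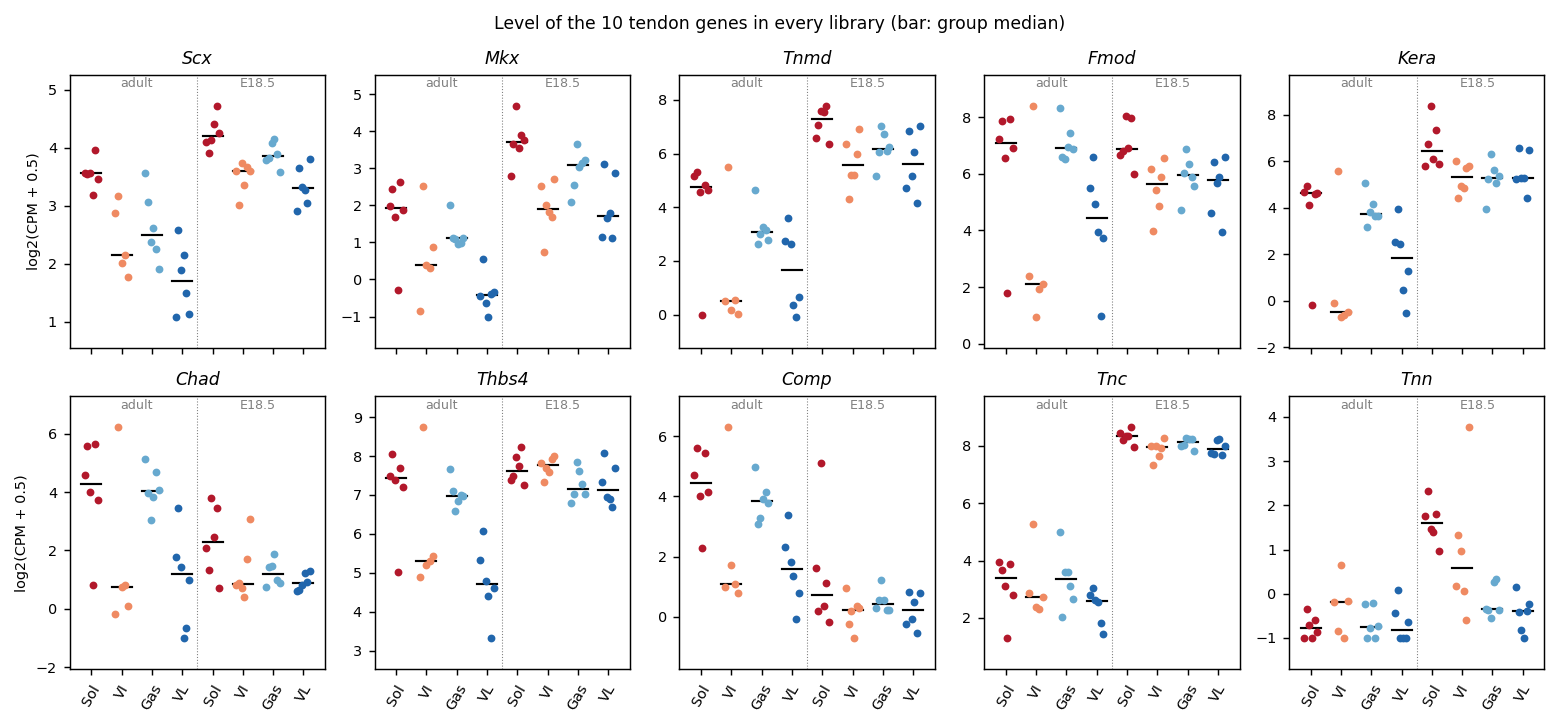
Level of the 10 genes in every library as log2(CPM + 0.5) (vertical axis). Points are libraries in 8 groups of stage and muscle (Sol, soleus; VI, vastus intermedius; Gas, gastrocnemius; VL, vastus lateralis), and bars are group medians. Tnc separates the stages without overlap, whereas Fmod and Thbs4 overlap between stages in soleus.

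Tnmd, the defining marker of tenocytes here, spread widely between adult libraries. Adult soleus held 0.492 to 39.3 CPM (median 26.3), and its other 5 libraries lay at or above 22.99 CPM. Adult gastrocnemius held 5.62 to 24.5 CPM (median 7.97), and adult vastus lateralis 0.451 to 11.6 CPM (median 3.40). The 5 adult vastus intermedius libraries held 0.505, 0.629, 0.911, 0.952 and 45.0 CPM. In the adult vastus lateralis, collections A to C held 5.71 to 11.6 CPM and collections D to F 0.451 to 1.09 CPM. At E18.5 Tnmd held 81.2 to 218 CPM in soleus (median 159), 19.5 to 120 CPM in vastus intermedius (median 49.5), 35.4 to 131 CPM in gastrocnemius (median 72.0) and 17.4 to 129 CPM in vastus lateralis (median 50.5). Adult and E18.5 values did not overlap in soleus, gastrocnemius or vastus lateralis.

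Tnmd fell with age by a log2 fold change of -2.61 ± 0.60 in soleus (adjusted p = 0.00186), -3.02 ± 0.42 in gastrocnemius (3.45e-05) and -3.85 ± 0.77 in vastus lateralis (0.000634). In vastus intermedius it was -2.58 ± 1.15 (adjusted p = 0.0628), or -6.30 ± 0.69 without the library of collection C (adjusted p = 1.39e-05). Neither muscle contrast passed: adult slow against fast was 1.24 ± 0.73 (adjusted p = 0.140), adult thigh against shank -1.27 ± 0.74 (0.258), and E18.5 thigh against shank -0.84 ± 0.34 (0.0742). Without the adult vastus intermedius library of collection C the adult thigh-to-shank value was -3.12 ± 0.62 (adjusted p = 0.00129).

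Fibromodulin, keratocan and chondroadherin, encoded by Fmod, Kera and Chad, are leucine-rich repeat proteins of the matrix, and fibromodulin and keratocan bind collagen fibrils. Fmod varied most in adult soleus and vastus intermedius. Adult soleus held 2.95 to 242 CPM (median 136), adult gastrocnemius 92.4 to 317 CPM (median 118) and adult vastus lateralis 1.48 to 95.0 CPM (median 22.6). The 5 adult vastus intermedius libraries held 1.45, 3.30, 3.81, 4.72 and 334 CPM. The E18.5 medians were 116 CPM in soleus, 50.4 CPM in vastus intermedius, 61.3 CPM in gastrocnemius and 55.1 CPM in vastus lateralis, with ranges that overlapped each other. Fmod was higher in adult than in E18.5 gastrocnemius (1.18 ± 0.40, adjusted p = 0.0161). The soleus (-0.12 ± 0.69, adjusted p = 0.879) and vastus lateralis (-0.74 ± 0.74, adjusted p = 0.375) values did not pass. In vastus intermedius it was 0.46 ± 1.28 (adjusted p = 0.757) with the library of collection C and -3.93 ± 0.58 (adjusted p = 0.000141) without it.

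Kera, best known from the cornea, had a higher E18.5 level. Adult soleus held 0.382 to 30.1 CPM (median 24.2), adult gastrocnemius 8.42 to 32.9 CPM (median 12.9) and adult vastus lateralis 0.193 to 14.8 CPM (median 3.45). The 5 adult vastus intermedius libraries held 0.126, 0.146, 0.224, 0.429 and 46.7 CPM, so 4 of them lay near what 3 counts are worth. At E18.5 it held 55.4 to 331 CPM in soleus (median 87.1), 21.1 to 63.5 CPM in vastus intermedius (median 41.3), 14.8 to 78.1 CPM in gastrocnemius (median 38.6) and 20.7 to 95.8 CPM in vastus lateralis (median 38.03). Kera fell with age in soleus (-2.72 ± 0.70, adjusted p = 0.00373), gastrocnemius (-1.43 ± 0.41, 0.00622) and vastus lateralis (-3.46 ± 0.71, 0.000743). In vastus intermedius it was -2.09 ± 1.23 (adjusted p = 0.147), and -7.40 ± 0.53 without the library of collection C (adjusted p = 1.72e-07). Without that library Kera entered the fit through its E18.5 level, so the filter favoured this fall.

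Chad ran the other way with age. Adult soleus held 1.26 to 49.3 CPM (median 19.4), against 1.13 to 13.3 CPM (median 4.38) in E18.5 soleus. Adult gastrocnemius held 7.77 to 34.4 CPM (median 15.7), against 1.19 to 3.15 CPM (median 1.82) in E18.5 gastrocnemius, without overlap. Chad was higher in the adult in gastrocnemius (3.24 ± 0.35, adjusted p = 6.95e-07) and in soleus (2.06 ± 0.77, adjusted p = 0.0298). The soleus call was lost without E18.5 collection A, B, D or F or adult collection B or E, with adjusted p of 0.0516 to 0.0693. In adult vastus lateralis Chad held 0 to 10.5 CPM (median 1.82), and its change of 1.01 ± 0.73 did not pass (adjusted p = 0.217). In vastus intermedius the sign turned with the library of collection C: 2.62 ± 1.36 with it (adjusted p = 0.102) and -1.61 ± 0.70 without it (adjusted p = 0.0554).

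Thrombospondin 4, encoded by Thbs4, is a matrix protein of tendon and of the muscle attachment, and cartilage oligomeric matrix protein, encoded by Comp, is the member of the same family that is abundant in cartilage and mature tendon. Thbs4 was measured well above the detection floor in every library. Adult soleus held 32.1 to 266 CPM (median 174), adult gastrocnemius 95.7 to 203 CPM (median 126) and adult vastus lateralis 9.53 to 66.6 CPM (median 25.7). The 5 adult vastus intermedius libraries held 29.3, 36.4, 38.96, 42.8 and 425 CPM. At E18.5 its groups were close to each other, with medians of 196 CPM in soleus, 217 CPM in vastus intermedius, 143 CPM in gastrocnemius and 141 CPM in vastus lateralis. It fell with age in vastus lateralis (-2.40 ± 0.41, adjusted p = 0.000137). Soleus (-0.36 ± 0.36, adjusted p = 0.381) and gastrocnemius (-0.29 ± 0.20, adjusted p = 0.198) did not pass. Vastus intermedius was at -0.87 ± 0.72 (adjusted p = 0.291) with the library of collection C and at -2.52 ± 0.145 (adjusted p = 3.06e-09) without it.

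Comp was near 1 CPM in most E18.5 libraries and higher in the adult. Adult soleus held 4.42 to 48.0 CPM (median 21.5), against 0.385 to 34.5 CPM (median 1.24) in E18.5 soleus, where 1 library of collection C held 34.5 CPM and the other 5 at most 2.56 CPM. Adult gastrocnemius held 7.99 to 30.99 CPM (median 13.8), against 0.668 to 1.85 CPM (median 0.848) in E18.5 gastrocnemius. Adult vastus lateralis held 0.451 to 9.999 CPM (median 2.53), against 0.184 to 1.29 CPM (median 0.685) in E18.5 vastus lateralis. Comp was higher in adult gastrocnemius (3.95 ± 0.36, adjusted p = 7.14e-08) and vastus lateralis (2.27 ± 0.65, 0.00484), and soleus did not pass (1.90 ± 1.06, 0.125). In vastus intermedius the log2 fold change was 4.64 ± 1.29 (adjusted p = 0.00727), and without the library of collection C it was 1.39 ± 0.49 (adjusted p = 0.0204). With limma-voom that call was lost (2.74, adjusted p = 0.0513).

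Tenascin-C, encoded by Tnc, is a matrix glycoprotein of developing tendon and of the myotendinous junction, and tenascin-W, encoded by Tnn, is known from developing bone and its surface. Tnc separated the stages without overlap. Adult medians were 10.2 CPM in soleus, 6.06 CPM in vastus intermedius, 9.85 CPM in gastrocnemius and 5.51 CPM in vastus lateralis, and no adult library exceeded 38.01 CPM. E18.5 medians were 322 CPM in soleus, 248 CPM in vastus intermedius, 282 CPM in gastrocnemius and 234 CPM in vastus lateralis, and no E18.5 library held less than 161 CPM. The log2 fold change of adult over E18.5 was -5.08 ± 0.38 in soleus (adjusted p = 2.38e-08), -4.27 ± 0.63 in vastus intermedius (9.64e-05), -4.57 ± 0.45 in gastrocnemius (1.64e-06) and, for vastus lateralis, -5.61 ± 0.26 (7.66e-11). At E18.5 Tnc was slightly lower in thigh than in shank muscles (-0.31 ± 0.095, adjusted p = 0.0175). That call was lost without E18.5 collection A (0.0565), B (0.0567) or E (0.0851), within alternatives that ran from 0.00142 to 0.152.

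Tnn was at or near 0 in the adult, where medians ran from 0.0729 CPM in vastus lateralis to 0.375 CPM in vastus intermedius, and it was too low to test between adult muscles. At E18.5 soleus held 1.46 to 4.53 CPM (median 2.57) and vastus intermedius 0.159 to 13.1 CPM (median 1.05). Gastrocnemius held 0.188 to 0.768 CPM (median 0.284) and vastus lateralis 0 to 0.613 CPM (median 0.257), so soleus lay above both fast-biased muscles without overlap. Tnn was higher in E18.5 slow-biased muscles by 3.10 ± 0.57 (adjusted p = 0.0162). It was low in both fast-biased muscles and entered this fit through its slow-biased level, so the filter favoured this direction. The call was lost without E18.5 collection C (adjusted p = 0.0903) or D (0.0527) and with a cartilage and bone covariate (2.22 ± 0.64, adjusted p = 0.249), and over the 12 alternatives the adjusted p ran from 3.12e-05 to 0.249. Ibsp, a gene of bone-forming cells, differed the same way, at 3.84 and 7.75 CPM on average in E18.5 soleus and vastus intermedius against 0.0280 and 0.337 CPM in gastrocnemius and vastus lateralis (5.73 ± 1.07, adjusted p = 0.0202). The summed CPM of 10 bone genes was 90.5 in the E18.5 vastus intermedius library of collection F, which held 13.1 CPM of Tnn, and 34.6 to 53.9 in the other 5. The part of bone tissue in the Tnn difference was not tested beyond that covariate. Tnn entered the fits across stages through its E18.5 level, so the filter favoured a lower adult value and these calls are no independent support for a fall. The adult values were lower in soleus (-4.66 ± 0.54, adjusted p = 9.37e-07) and in vastus intermedius (-2.94 ± 1.19, adjusted p = 0.0410). The vastus intermedius call was lost without E18.5 collection F (-1.33 ± 0.80, adjusted p = 0.147) and without adult collection A, C, E or F, with adjusted p of 0.0778 to 0.0915.

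Compared per length, as TPM (library-scaled counts per gene length), the order of the genes differed between stages. In adult soleus Thbs4 (mean 104 TPM) and Fmod (99.1 TPM) led, followed by Tnmd (37.6 TPM), Chad (30.6 TPM) and Comp (21.5 TPM), with Tnc at 2.71 TPM. In E18.5 soleus Tnmd led (395 TPM), followed by Kera (234 TPM), Thbs4 (229 TPM), Fmod (184 TPM) and Tnc (159 TPM), with Comp at 10.02 TPM. Scx stood at 19.97 TPM in adult and 58.4 TPM in E18.5 soleus. TPM was taken without TMM factors, which ran from 0.525 to 0.922 in adult and from 1.21 to 1.52 in E18.5 libraries. It therefore serves for the order of genes within a stage and does not give the size of a change with age. Fmod and Thbs4 also led in adult gastrocnemius and vastus lateralis, while at E18.5 Tnmd or Thbs4 led in each muscle.

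Between the stages, the genes went in both directions within each muscle. In soleus 1 of 10 rose and 6 fell, against 36.3% higher and 39.6% lower of all 14865 genes tested. In vastus intermedius 1 of 10 rose and 3 fell, against 36.9% and 39.1%, and without the library of collection C 1 rose and 7 fell, against 36.2% and 39.2%. In gastrocnemius 3 of the 9 tested rose and 5 fell, against 38.1% and 43.9%. In vastus lateralis 1 of the 9 tested rose and 6 fell, against 36.3% and 42.6%. Most genes of the table changed with age, so a call by itself sets these genes apart little. The falls counted in soleus and, with all 5 adult libraries, in vastus intermedius include Tnn, whose direction the filter favoured. The filter also favoured the fall of Mkx counted in vastus lateralis and that of Kera counted in vastus intermedius without collection C. The library of collection C was singled out by the levels of these genes, so the counts without it are a description. The median log2 fold change of the tested genes was -1.40 in soleus, against -0.06 over all genes. It was -1.09 in vastus intermedius, against -0.04, then -1.28 in gastrocnemius, against -0.12, and for vastus lateralis -2.40, against -0.15. Of 24 other tendon matrix genes, 5 rose and 16 fell in soleus, 4 and 17 in vastus intermedius, 5 and 18 in gastrocnemius, and 4 and 17 in vastus lateralis. The fibril collagen gene Col5a2 had the smallest p of that list in soleus (-3.07 ± 0.13, adjusted p = 8.37e-12) and the tenascin gene Tnxb the largest (-0.05 ± 0.13, adjusted p = 0.732). Of 9 fibroblast markers, 4 rose and 3 fell in soleus, 4 and 4 in vastus intermedius, 4 and 4 in gastrocnemius, and 3 and 4 in vastus lateralis, with medians of -0.23 to 0.06. Their summed CPM was 1083 to 2977 in adult and 1067 to 1684 in E18.5 libraries, while Pdgfra fell by 1.63 to 2.22 on the log2 scale over the 4 muscles. Summed cartilage genes were 5.21 to 22.99 CPM in adult and 18.7 to 258 CPM in E18.5 libraries. Their part in the stage differences was not tested. Collection dates do not span the stages, so date and age cannot be told apart.

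**Figure D4:**
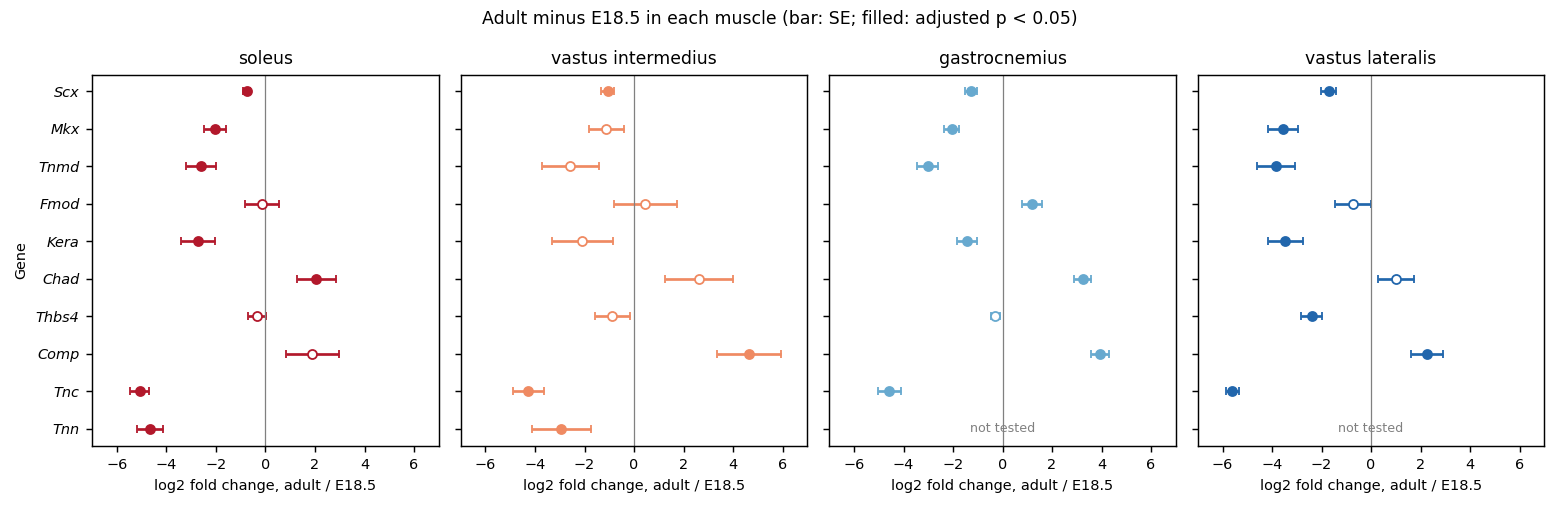
Log2 fold change of adult over E18.5 (horizontal axis) for each gene in each muscle, with standard errors as bars and filled points where the adjusted p is under 0.05. Tnc, Scx, Mkx, Tnmd and Kera lie below 0 in every muscle and Comp and Chad above 0, though Chad in vastus intermedius falls below 0 without the library of collection C.

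In the adult, slow-biased muscles were higher than fast-biased muscles in Scx, Mkx and Thbs4, which was 3 of the 9 genes tested, against 35.9% higher among all 14304 genes. Thbs4 differed by 1.13 ± 0.46 (adjusted p = 0.0354), with means of 140 CPM in slow-biased and 82.7 CPM in fast-biased muscles. Without the vastus intermedius library of collection C it was 0.30 ± 0.30 (adjusted p = 0.398), and it was lost also without collection E (0.0698) or F (0.0621). The same held with the animal as a block (0.88 ± 0.44, adjusted p = 0.0959), with limma-voom (0.66 ± 0.40, adjusted p = 0.152) and with the cartilage and bone covariate (1.14 ± 0.86, adjusted p = 0.309). Its adjusted p ran from 0.0143 to 0.568 over the 16 alternatives. The library of collection C decided the sign of other genes: without it, Fmod (-1.68 ± 0.61, adjusted p = 0.0233) and Kera (-1.95 ± 0.72, adjusted p = 0.0239) were lower in slow-biased muscles, where with it they were at 0.52 ± 0.80 and 0.70 ± 0.78. Among the 24 other tendon matrix genes 15 were higher and none lower, with a median of 0.76 against 0.08 over all genes. Thbs3, another thrombospondin, had the smallest p (1.202 ± 0.115, adjusted p = 1.58e-09) and Fibin the largest (0.10 ± 0.18, adjusted p = 0.634). Of 14 tested genes of tendon signals and partners 7 were higher and 5 lower, with the TGF-beta receptor gene Tgfbr2 at 1.22 ± 0.078 (adjusted p = 1.45e-12) and Tcf3 at 0.05 ± 0.093 (adjusted p = 0.641). Markers of other cell types went along in part. Of 9 fibroblast markers 6 were higher and 1 lower, with Pdgfra at 0.44 ± 0.13 (adjusted p = 0.00559). All 5 endothelial genes were higher (median 0.76), as were all 5 Schwann cell genes (median 0.93), and of the 8 muscle genes 3 were higher and 5 lower. Of 5 tested cartilage genes 3 were higher and 1 lower (median 0.66). Of 6 tested bone genes 2 were higher and 2 lower (median -0.23), and 0 of 5 fat cell genes passed (median -0.23). Their part in the differences was not tested.

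Adult thigh muscles were lower than shank muscles in Scx and Mkx, 2 of the 9 genes tested, against 7.47% lower of all genes. Thbs4 missed the threshold (-1.30 ± 0.46, adjusted p = 0.0563) and passed it with the animal as a block (-1.59 ± 0.45, adjusted p = 0.0223). Without the vastus intermedius library of collection C 8 of 9 were lower, against 9.0% of all genes, and without both libraries all 9 tested were, against 8.5%. Without both, the log2 fold changes ran from -1.11 ± 0.32 for Tnc (adjusted p = 0.0166) to -4.15 ± 0.55 for Kera (3.52e-05), with Fmod at -3.91 ± 0.53 and Thbs4 at -2.23 ± 0.25. These libraries were singled out by the levels of the same genes, so the larger counts are a description of the remaining 21 libraries. Summed over the 10 genes, single libraries held 51.3 to 59.9 CPM in adult vastus intermedius outside collection C. The sums were 17.8 to 223 CPM in adult vastus lateralis, 52.5 to 693 CPM in adult soleus and 244 to 690 CPM in adult gastrocnemius. Of the 24 other tendon matrix genes 3 were lower and none higher, with Thbs3 at -0.51 ± 0.12 (adjusted p = 0.00270) and Prelp at -0.04 ± 0.27 (0.937). The cartilage gene Col2a1 was lower in thigh muscles as well (-2.24 ± 0.53, adjusted p = 0.00387), at means of 0.560 and 0.119 CPM in vastus intermedius and vastus lateralis against 1.75 and 0.995 CPM in soleus and gastrocnemius. With the summed CPM of cartilage and bone genes as 1 covariate Scx (-1.12 ± 0.24, adjusted p = 0.00167) and Mkx (-1.68 ± 0.51, adjusted p = 0.0247) still passed. Bone genes made up most of that sum in the adult, at group means of 40.8 to 76.0 CPM against 6.46 to 15.3 CPM for cartilage genes. Alpl, of the bone list, was at 30.7 CPM in the vastus intermedius library of collection C, against a median of 66.7 CPM in the others of that group. The covariate therefore does not follow cartilage or tendon alone.

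At E18.5 slow-biased and fast-biased muscles differed in Tnn only among these genes, 1 of 10 higher, against 0.146% higher of all 15751 genes. The filter favoured that direction for Tnn, so the call is no independent support for a difference. Thigh muscles were lower than shank muscles in Scx, Mkx, Tnc and Comp, 4 of 10, against 10.6% of all genes, and none was higher. Comp was lower in thigh muscles by a log2 value of -1.88 ± 0.63 (adjusted p = 0.0334), with means of 0.705 CPM in thigh and 3.87 CPM in shank muscles. Without collection C, whose soleus library held 34.5 CPM, it was -0.43 ± 0.40 (adjusted p = 0.489). The Comp call was lost also without collection A (0.0526), D (0.0569) or E (0.0617), and with the animal as a block (-1.09 ± 0.62, adjusted p = 0.206). Without collection F, 8 of the 10 genes were lower in thigh muscles, against 9.52% of all genes. Cartilage genes moved the same way in part: 2 of 7 were lower, with Hapln1 at -1.37 ± 0.29 (adjusted p = 0.00114). Of the 8 muscle genes 5 were higher in thigh muscles and none lower, with a median of 0.84, and their part was not tested. Summed CPM of the cartilage genes ran from 22.6 to 82.8 in E18.5 vastus intermedius and 18.7 to 95.7 in E18.5 vastus lateralis, against 56.3 to 258 in E18.5 soleus and 26.5 to 96.5 in E18.5 gastrocnemius. With the summed CPM of cartilage and bone genes as 1 covariate Scx (-0.57 ± 0.11, adjusted p = 0.00116) and Mkx (-0.97 ± 0.17, adjusted p = 0.000778) were still lower, and Tnc and Comp did not pass. Among the other tendon matrix genes 3 were higher and 2 lower, with Prelp at 1.38 ± 0.22 (adjusted p = 9.15e-05) and Thbs2 at -0.01 ± 0.10 (0.959). Gdf6, a growth factor of the BMP family, was lower in thigh muscles (-2.74 ± 0.41, adjusted p = 3.67e-05), as were 5 of the 16 tested signal genes in all.

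**Figure D5:**
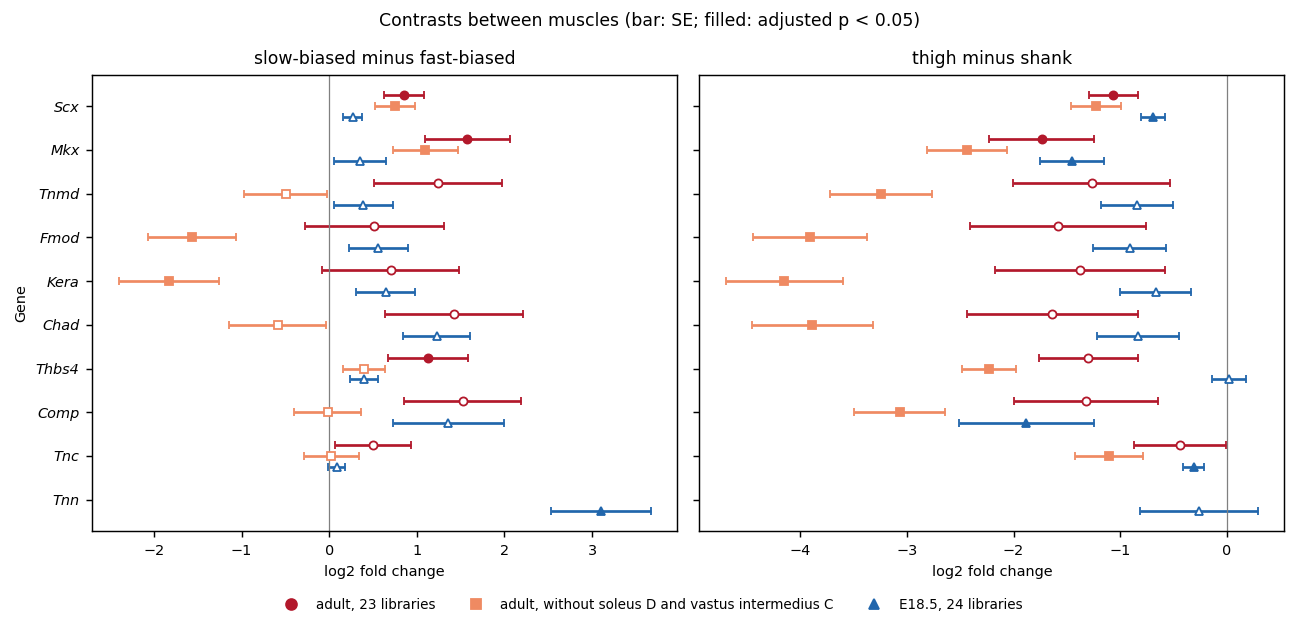
Log2 fold change (horizontal axis) of each gene between slow-biased and fast-biased muscles (left) and between thigh and shank muscles (right), with standard errors as bars and filled points where the adjusted p is under 0.05. Circles are the 23 adult libraries, squares the adult libraries without soleus D and vastus intermedius C, and triangles the 24 E18.5 libraries. Leaving out the 2 adult libraries moves Tnmd, Fmod, Kera, Chad and Comp across 0 on the left, Comp only to -0.02, and all tested genes further below 0 on the right.

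Single pairs of muscles were compared as well. Adult soleus was higher than adult vastus lateralis in 6 of the 9 tested genes, against 33.4% higher of all genes: Mkx (3.31), Chad (3.06), Comp (2.85), Tnmd (2.51), Thbs4 (2.43) and Scx (1.92 ± 0.32). With the cartilage and bone covariate Scx alone passed there, and the share over all genes in that fit is not set beside it. Without the vastus intermedius library of collection C, which changes the spread shared by this fit, Fmod (adjusted p = 0.0219) and Kera (0.0158) passed too, 8 of 9 against 33.3%, and without both libraries all 9 did, against 31.1%. Adult soleus was higher than adult gastrocnemius in Scx alone (0.91 ± 0.31), against 27.6% of all genes, and without both libraries in Scx, Tnmd (1.56 ± 0.53, adjusted p = 0.0203) and Mkx (1.08 ± 0.44, adjusted p = 0.0460), against 25.1%. Adult vastus intermedius was higher than adult vastus lateralis in Thbs4 (1.92) and Mkx (2.29), against 27.8%, and both calls were lost without the library of collection C (0.26, adjusted p = 0.671, and 1.12, adjusted p = 0.197). In that refit Fmod, Kera and Tnmd were lower instead, against 22.2% of all genes. With the animal as a block the Thbs4 call was lost (1.61 ± 0.68, adjusted p = 0.0599) and Scx passed (0.88 ± 0.31, adjusted p = 0.0229). Adult vastus intermedius was lower than adult soleus in Scx (-1.12 ± 0.33), against 5.49% of all genes, and in 8 of 9 genes without that library, against 7.66%. Without that library adult vastus intermedius was also lower than adult gastrocnemius in 6 of 9 genes (Fmod, Kera, Chad, Thbs4, Comp and Tnmd), against 16.7%. In the same refit adult vastus lateralis was lower than adult gastrocnemius in Thbs4 (-2.08 ± 0.42, adjusted p = 0.00528), Mkx, Comp and Chad, against 3.61%. With all 23 adult libraries and the animal as a block, Thbs4 (adjusted p = 0.0369), Mkx (0.0333) and Scx (0.0449) were lower in vastus lateralis than in gastrocnemius, against 3.99%. At E18.5 vastus intermedius was lower than soleus in Fmod, Kera, Scx, Mkx, Tnc and Comp, 6 of 10, against 3.53% of all genes. E18.5 soleus was higher than vastus lateralis in Tnn, Comp, Chad, Mkx, Fmod and Scx, also 6 of 10, against 5.31%. E18.5 vastus lateralis was lower than gastrocnemius in Scx (-0.58 ± 0.16, adjusted p = 0.0170), 1 of 10, against 3.47%. E18.5 vastus intermedius was higher than gastrocnemius in Tnn (2.84 ± 0.79, adjusted p = 0.0192), 1 of 10, against 8.75%. For Tnn the filter favoured a higher value in soleus and vastus intermedius in these pairs. With the animal as a block, 6 of these 14 E18.5 calls were lost. They were Fmod (adjusted p = 0.0712), Kera (0.0773) and Comp (0.141) between vastus intermedius and soleus, Fmod (0.0731) and Comp (0.199) between soleus and vastus lateralis, and Tnn (0.107) between vastus intermedius and gastrocnemius. Tnc passed in addition between soleus and vastus lateralis (adjusted p = 0.0395). With the cartilage and bone covariate 2 of the 14 remained, both for Scx, between soleus and vastus lateralis (adjusted p = 0.0448) and between vastus lateralis and gastrocnemius (0.00833). In that fit 3 E18.5 calls were gained, all lower than gastrocnemius. They were Mkx in vastus intermedius (-1.25 ± 0.23, adjusted p = 0.000846) and in vastus lateralis (-1.11 ± 0.23, 0.00346), and Scx in vastus intermedius (-0.45 ± 0.14, 0.0358). Calls over all genes move with the block and the covariate too, and their shares are not set beside these E18.5 counts. Calls lost or gained in this way therefore do not show a change particular to the 10 genes. These pairs share libraries and animals, so their counts are not independent of each other. Soleus D and vastus intermedius C were singled out by the levels of the same genes. The calls without them are therefore a description of the remaining libraries.

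The change of the muscle contrasts with stage was tested as an interaction. For the slow-to-fast contrast the only call was Tnn (-2.77 ± 0.98, adjusted p = 0.0161), 1 of 10 genes, against 24.2% lower of all 16402 genes. Adult Tnn lay near what 3 counts are worth and entered this fit through its E18.5 level, so the value restates the E18.5 difference and gives no adult contrast. For the thigh-to-shank contrast 0 of 10 passed in edgeR's test, where 8.04% of all genes were lower. Only Thbs4 had an unadjusted p under 0.05 there (-1.35 ± 0.47, adjusted p = 0.0578 by edgeR). Without the adult vastus intermedius library of collection C, Fmod, Kera, Chad, Thbs4 and Tnmd passed for the thigh-to-shank contrast, 5 of 10 against 8.28% lower of all genes, with Thbs4 at -2.17 ± 0.34 (adjusted p = 1.87e-05). That library was singled out by the levels of the same genes, so these calls are a description of the remaining libraries.

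The genes varied together between libraries of 1 group. On deviations of log2(CPM + 0.5) from the group mean, Tnmd correlated in 23 adult libraries with Kera (Pearson's r = 0.985, Spearman's rho = 0.968), Fmod (0.961 and 0.939) and Thbs4 (0.949 and 0.919), and least with Scx (0.522 and 0.471). Without the 2 libraries farthest from the median of Tnmd these values of r were 0.969, 0.907, 0.886 and 0.431. In 24 E18.5 libraries Tnmd correlated with Fmod (0.938 and 0.919), Mkx (0.855 and 0.827), Kera (0.832 and 0.876) and Thbs4 (0.815 and 0.841). Scx was at 0.724 and 0.710 there, and Tnn correlated little (0.168 and 0.0243). These are descriptions of 17 relations. The libraries share animals across muscles and so are not independent, and no p is given for that reason. By the fixed rule of highest correlation with the mean of 9 of the genes over 47 libraries, the most similar of 13856 other genes were Wif1 (0.934), Cilp2 (0.918), Col11a1 (0.902), Col12a1 (0.873) and Chodl (0.855). Cilp2, Col11a1 and Col12a1 were on the list of other tendon matrix genes.

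The authors' deposited tables, made with DESeq2, listed all 10 genes in each comparison. For adult slow-biased against fast-biased muscles the authors' deposited table had Scx at 0.93 (adjusted p = 0.00388) as the only call among them. For adult thigh against shank muscles the authors' deposited table called Scx (-1.12) and Thbs4 (-1.95) lower. For E18.5 thigh against shank muscles it called 5 lower, and in the authors' deposited table for this comparison Scx (-0.70), Mkx (-1.51), Tnmd (-0.91), Fmod (-1.03) and Tnc (-0.31) passed, whereas Comp did not (-0.60, adjusted p = 0.205).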

How the data were processed

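Poly(A) RNA of whole muscles (RNA integrity number above 7.0, per the labels' protocols) was sequenced by the authors. The deposited table holds raw counts per gene on build mm10, and the submitters' processing notes name STAR 2.7.11, featureCounts (Subread 2.0.6), Trimmomatic 0.39.0, FastQC 0.11.5 and, for comparisons, DESeq2 1.44.0. The 9 deposited comparison tables hold the authors' log2 fold changes and p-values. They paired 18780 gene IDs with symbols, and RefSeq names were used for 6501 more. The sources used here state neither the strand setting nor the annotation.

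The test was that of edgeR 4.0.16 (quasi-likelihood on counts, TMM scaling, filterByExpr), 1 fit over the libraries of a stage for muscle contrasts, 1 per muscle for age and 1 over both stages for interactions. The threshold was an adjusted p of 0.05 over all genes, with p-values adjusted by Benjamini-Hochberg. SEs are of log2 fold changes. The code was tested on simulated data with 200 changed genes. Alternatives were DESeq2 1.42.0, upper-quartile scaling, no filter, limma-voom (limma 3.58.1), leaving out each collection, the animal as a block, and the left-out library put back. A further alternative took the log2 of 1 sum over the CPM of all cartilage and bone genes as a covariate. Leaving out adult soleus D, vastus intermedius C or both was chosen after seeing the data. The labels say that the 4 muscles came from the same mice, and the date tag stands for the animal. Deviations of libraries with the same tag had a mean correlation of 0.0676 in the adult and 0.132 at E18.5, against -0.0136 and -0.0264 for different tags. The main test takes muscles of an animal as separate samples. Within groups, every pair of libraries differed by more than sampling noise (lowest chi-square per degree of freedom 10.8).

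The 10 genes and the lists were chosen with earlier results of these data known. Named genes outside the 10 are those with the smallest and the largest p of their list, defining markers and the 5 most similar genes. Adipoq, Plin1, Myh7 and Myh4 were chosen after their values were seen.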

Additional observations from a re-analysis of the deposited data

Results flagged for a closer look

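Of 80 groups of libraries examined, 20 had 1 library far from the others by Dixon's criterion. The criterion gives about 1 in 20 by chance for normal values. It was applied here to CPM without logs and to genes that share libraries, so that rate does not hold. Every flagged library was the highest of its group, and the low adult soleus library of collection D was not flagged. In adult vastus intermedius the library of collection C stood apart for Mkx (5.22 CPM), Tnmd (45.0 CPM), Thbs4 (425 CPM), Comp (77.9 CPM), Fmod (334 CPM), Kera (46.7 CPM), Chad (73.6 CPM) and Tnc (38.01 CPM). In adult gastrocnemius the library of collection A did so for Mkx (3.51 CPM), Tnmd (24.5 CPM), Fmod (317 CPM), Kera (32.9 CPM) and Tnc (31.6 CPM), and in adult vastus lateralis that of collection B for Mkx (0.966 CPM), Kera (14.8 CPM) and Chad (10.5 CPM). At E18.5 it did so for Comp in soleus (34.5 CPM) and gastrocnemius (1.85 CPM), and for Tnn (13.1 CPM) and Chad (7.89 CPM) in vastus intermedius.

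The interaction test of the slow-to-fast contrast with stage called Tnn, with a log2 value of -2.77. Adult Tnn was near what 3 counts are worth and could not be tested between adult muscles, so this value sets the E18.5 difference against that floor. In the adult vastus intermedius library of collection B, which entered only the alternative that put it back, all 10 genes had more than 3 counts, with Tnmd at 62.0 CPM.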

How the results depend on the processing

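Counts of calls among the 10 genes moved by more than 1.5 times under these settings, and the cause was not tested. Calls over all genes move with the settings too, and their shares are not set beside the counts here and below. These counts therefore do not show a change particular to the 10 genes. For the 6 adult muscle pairs the count was 10, and it was 3 with the cartilage and bone covariate, 30 without vastus intermedius C and 34 without both libraries. For the E18.5 pairs it was 14, and 9 with the animal as a block and 5 with the covariate. For adult slow against fast it was 3, and 1 with limma-voom, 1 with the covariate and 5 with the left-out library put back. For adult thigh against shank it was 2, and 6 with limma-voom, 8 without vastus intermedius C and 9 without both. At E18.5, slow against fast gave 1, and 0 with limma-voom and 0 with the covariate, and thigh against shank gave 4, and 2 with the covariate. For the interactions it was 1, and 3 with DESeq2, 2 with upper-quartile scaling, 2 with limma-voom, 3 with the left-out library put back, 3 without soleus D, 9 without vastus intermedius C and 9 without both.

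Leaving out 1 collection at a time gave 5 to 26 calls for adult pairs, 4 to 18 for E18.5 pairs, 2 to 4 for adult slow against fast, 1 to 8 for adult thigh against shank, 0 to 1 for E18.5 slow against fast, 2 to 8 for E18.5 thigh against shank, 24 to 30 for age (26 with all collections), and 0 to 9 for the interactions. Of 36 called gene results, 26 kept call and sign in every alternative that gave an adjusted p. Tnc in vastus intermedius lost its age call with the left-out library put back (-2.26, adjusted p = 0.0567). Upper-quartile scaling moved the median of all genes between stages by -0.108 to -0.142 in 3 muscles. Genes near 3 counts (adult Tnn, and Mkx in adult vastus lateralis) were limited by depth.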
